A study of Mus musculus with 2 samples.

Results

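The histone cluster genes encode the histones that are made in bulk while DNA is copied. Members were taken as every gene name on the arrays that begins with Hist1h, Hist2h, Hist3h or Hist4h and that carries at least 3 probes. There were 53 such genes among 16908 genes in all. They comprised 6 H1, 9 H2a, 15 H2b, 11 H3 and 12 H4 genes. A further 8 names beginning in the same way had fewer than 3 probes and are described separately.

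Ring1B chromatin from mouse embryonic stem (ES) cells was compared with input chromatin of the same cells by ChIP-chip, in which DNA pulled down by an antibody competes on one tiling array with DNA of chromatin taken without it. DNA recovered with a monoclonal Ring1B antibody carried Cy5 and input DNA carried Cy3, on both of the 2 promoter arrays. Both samples were labelled as ES cells in their titles, with no genotype or treatment given, whereas their source names begin with Muscle, and the titles were followed. The arrays are the 2 slides of one promoter set with no probe in common, so each promoter was measured once, without a replicate, a dye swap or a mock immunoprecipitation, and no test across genes was possible.

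Each nucleosome holds H2a, H2b, H3 and H4, and H1 binds the DNA that enters and leaves it. The clustered histone genes are short and lack introns, their transcripts end in a stem-loop in place of a poly(A) tail, and neighbouring genes are often transcribed away from a shared stretch of promoter. Ring1B, encoded by Rnf2, is the ubiquitin ligase of Polycomb repressive complex 1 and attaches ubiquitin to histone H2a. In ES cells it is best known at promoters of silent developmental regulators, whereas most clustered histone genes are transcribed strongly in dividing cells.

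All values are log2 ratios of Ring1B over input DNA, set so that the median probe of each array is 0. Probes of a gene were averaged, and the SD beside such a mean is the spread over the probes, which is not a replicate error. The arrays gave 237054 and 237168 usable probes. Of the members, 45 lay on array 2, with 42 on chromosome 13 and 3 on chromosome 11, and 8 on array 1, with 7 on chromosome 3 and 1 on chromosome 6. Coordinates of probes follow the array files, which with the labels name no genome build. The members had 1011 probes when shared ones were counted once, and 100 of these stood between 2 genes transcribed in opposite directions. A member had a median of 20 probes, against 28 over all genes. No member probe shared 20 identical bases in a row with a probe of another member.

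The promoters on which the results turn are printed from RefSeq (GRCm38.p6), which gave a present symbol for all 53 members. The capitals mark the array probes held in each stretch, and each stretch ends 30 bases after the transcription start. The first set shows promoters with high ratios, 1 for H1, H2a, H2b and 2 for H3, together with the H4 promoter with the highest ratio.
H1f4 (Hist1h1e), chr13:23622529-23622808, strand -: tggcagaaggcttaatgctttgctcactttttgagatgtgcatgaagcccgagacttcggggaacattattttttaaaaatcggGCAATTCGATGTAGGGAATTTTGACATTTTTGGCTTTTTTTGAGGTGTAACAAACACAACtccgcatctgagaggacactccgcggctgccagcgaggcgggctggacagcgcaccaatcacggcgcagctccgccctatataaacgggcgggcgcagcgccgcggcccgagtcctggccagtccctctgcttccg
H2ac10 (Hist1h2af), chr13:23533675-23533904, strand +: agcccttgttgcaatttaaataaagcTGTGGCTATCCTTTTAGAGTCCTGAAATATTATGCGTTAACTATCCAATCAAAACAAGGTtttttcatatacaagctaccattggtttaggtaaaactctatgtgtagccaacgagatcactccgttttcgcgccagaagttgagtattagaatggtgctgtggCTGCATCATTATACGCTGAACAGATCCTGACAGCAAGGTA
H2bc14 (Hist1h2bm), chr13:21721794-21722073, strand +: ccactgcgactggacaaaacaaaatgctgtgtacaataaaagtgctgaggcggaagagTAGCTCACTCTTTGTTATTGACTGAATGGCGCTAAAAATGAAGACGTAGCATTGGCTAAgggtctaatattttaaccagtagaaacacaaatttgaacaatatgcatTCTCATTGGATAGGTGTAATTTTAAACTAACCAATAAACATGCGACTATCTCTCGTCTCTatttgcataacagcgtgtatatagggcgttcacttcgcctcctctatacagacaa
H3c2 (Hist1h3b), chr13:23752095-23752374, strand +: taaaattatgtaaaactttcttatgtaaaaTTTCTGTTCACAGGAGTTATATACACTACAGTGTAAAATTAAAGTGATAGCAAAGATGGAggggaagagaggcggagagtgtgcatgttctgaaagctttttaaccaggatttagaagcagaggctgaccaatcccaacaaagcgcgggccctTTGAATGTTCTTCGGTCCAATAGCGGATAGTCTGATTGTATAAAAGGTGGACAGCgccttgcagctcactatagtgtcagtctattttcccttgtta
H3c6 (Hist1h3e), chr13:23562356-23562635, strand -: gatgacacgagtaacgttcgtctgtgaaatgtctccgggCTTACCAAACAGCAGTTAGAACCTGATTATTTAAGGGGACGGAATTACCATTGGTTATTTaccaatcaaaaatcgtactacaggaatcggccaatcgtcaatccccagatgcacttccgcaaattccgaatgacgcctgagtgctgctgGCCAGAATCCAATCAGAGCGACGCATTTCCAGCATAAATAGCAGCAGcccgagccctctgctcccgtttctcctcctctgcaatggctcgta
H4c8 (Hist1h4h), chr13:23530794-23531073, strand +: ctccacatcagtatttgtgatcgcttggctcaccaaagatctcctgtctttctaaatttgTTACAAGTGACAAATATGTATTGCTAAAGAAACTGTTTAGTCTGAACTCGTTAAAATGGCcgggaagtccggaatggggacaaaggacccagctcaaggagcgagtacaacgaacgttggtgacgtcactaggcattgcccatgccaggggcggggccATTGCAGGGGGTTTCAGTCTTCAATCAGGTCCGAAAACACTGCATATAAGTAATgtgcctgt

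The second set shows a pair of neighbouring promoters with low ratios, where the second probe of H4c9 runs past the printed end, as does that of H2ac10 above.
H2bc11 (Hist1h2bj), chr13:22042948-22043227, strand +: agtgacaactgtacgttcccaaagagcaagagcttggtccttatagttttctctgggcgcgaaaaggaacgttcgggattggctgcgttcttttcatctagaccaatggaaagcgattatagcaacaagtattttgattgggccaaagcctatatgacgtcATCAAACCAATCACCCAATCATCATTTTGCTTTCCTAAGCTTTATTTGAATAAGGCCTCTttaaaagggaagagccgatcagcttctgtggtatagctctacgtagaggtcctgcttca
H4c9 (Hist1h4i), chr13:22041333-22041612, strand -: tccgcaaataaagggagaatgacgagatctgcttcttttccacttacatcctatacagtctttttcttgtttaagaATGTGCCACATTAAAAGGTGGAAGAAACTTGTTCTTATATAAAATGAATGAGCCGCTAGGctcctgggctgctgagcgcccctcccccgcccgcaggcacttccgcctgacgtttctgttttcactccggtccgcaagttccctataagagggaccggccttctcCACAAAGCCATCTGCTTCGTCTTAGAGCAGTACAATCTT

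The single probe of H1f4 stood at 2.81. The probes of H2ac10 stood at 1.88 and 2.05 in the order printed, those of H2bc14 at 3.16 and 1.54, those of H3c2 at 1.61 and 1.68, and those of H3c6 at 1.67 and 3.23. In H4c8 the probes stood at 0.89 and 1.37. The probe of H2bc11 stood at -2.39 and those of H4c9 at -2.64 and -2.39. The lowest of these probes and the highest thus differ by more than 5 on the log2 scale. In H1f4, CCAAT began 52 bases before the start, TATAAA 27 bases before it and AAACACA, known from H1 promoters, 115 bases before it. In H2bc14, ATTTGCAT, the octamer bound by POU factors, began 25 bases before the start. In H3c2, CCAAT began 92 and 51 bases and TATAAA 29 bases before it. In H2bc11, which had a low ratio, CCAAT began 148, 83 and 75 bases before the start, and those at 83 and 75 lay inside the probe. Its reverse, ATTGG, began 173 and 114 bases before the start, outside the probe.

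Over the 62 histone cluster promoters in RefSeq, from 250 bases before the start to 50 after it, CCAAT was found on either strand in 85.5%, against 37.9% of all 27025 promoters. TATAAA was found in 56.5%, against 14.2% of all promoters. ATTTGCAT was found in 21.0%, against 1.75%, and all 13 promoters that held it belonged to H2a or H2b genes. AAACACA was found in 14.5%, against 7.14%, and in 5 of the 6 H1 promoters. CCAAT was found in every H1, H2a, H2b and H3 promoter but in 4 of the 13 promoters whose symbol begins with H4. Of these 4, H4bc24 had the same GC content (49.3%) and CG count (17) as H2bc23, and its class rests on its symbol alone. The histone promoters had a median GC content of 45.3%, against 52.7% of all promoters, and a median of 11 CG dinucleotides, against 7. A match of letters is a description and not a binding site.

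Over whole genes, the histone cluster genes had a median of 0.23, against -0.10 for all genes, but with loess within the array the medians were -0.05 and -0.14. Of the 53, 36 lay above 0 (67.9%), against 39.2% of all genes. A mean of 1 or more, which is 2-fold over the median probe, was found for 6 of the 53 members (11.3%), against 1.99% of all genes. A mean of -1 or less was found for 0 members, against 1.85% of all genes. Over the probes within 1000 bp of the start alone, 12 of 47 members stood at or above 1. The share of all genes over that window was not computed, and the 1.99% over whole genes cannot stand in for it. With genes that share probes joined, 4 of 45 units stood at or above 1 (8.89%). Other genes were not joined in this way, so no matching share of all genes was computed. Most of the 6 high members had few probes. Of the 15 members with fewer than 10 probes, 5 stood at or above 1, against 3.64% of all genes with so few. Of the 38 with 10 probes or more, 1 did, against 1.93% of such genes, and of the 28 with 20 or more, 0 did, against 2.13%. On array 2, the members had a median of 0.29, against -0.07 for all genes of that array, and on array 1 0.01, against -0.13. Over single probes, 26.1% of the 1011 stood at or above 1, against 19.8% of the probes of all genes, and 16.4% at or below -1, against 20.6%. Of the 100 divergent probes of members 32.0% stood at or above 1, against 19.5% of all divergent probes.

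**Figure D1:**
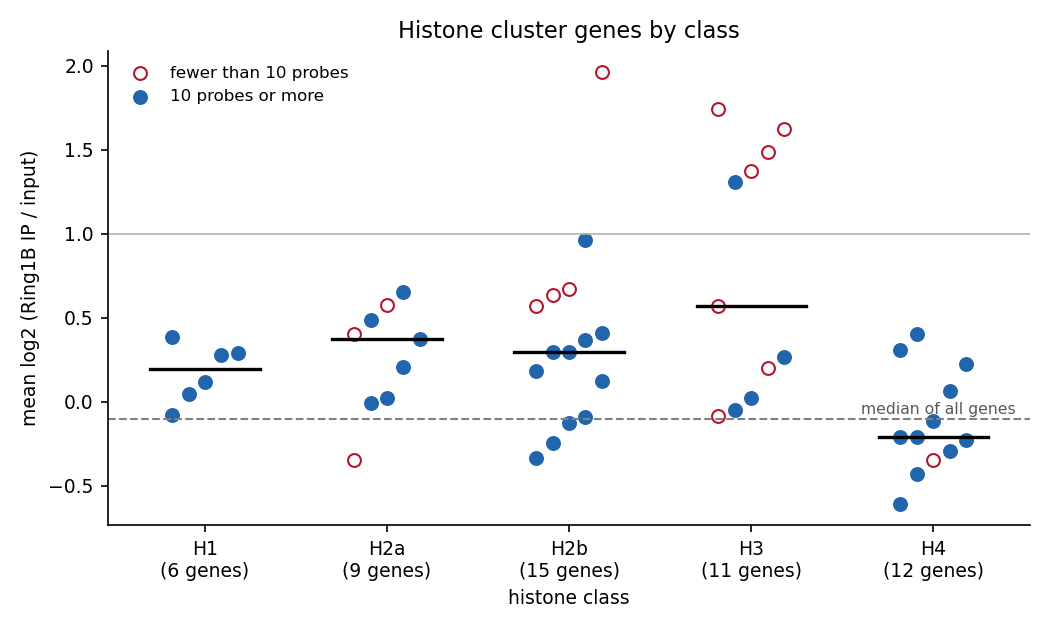
Mean log2 ratio of Ring1B over input (vertical axis) for each of the 53 histone cluster genes, by class. Each point is 1 gene measured on 1 array, open for fewer than 10 probes, black bars are class medians, the dashed line marks the median of all genes and the solid line marks 1. The 6 genes at or above 1 are 5 H3 genes and 1 H2b gene, and the H4 genes have the lowest median (-0.21).

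The H3 genes, which encode the histone that Polycomb repressive complex 2 methylates, had the highest class median, 0.57 over 11 genes, and 5 of them stood at or above 1, but the 4 with 10 probes or more had a median of 0.14. That is below the medians of the H2a (0.29), H1 (0.20) and H2b (0.18) genes with as many probes. Over probes of the gene alone the H3 median was 0.26, below that of H2a at 0.36. Hist1h3b (H3c2) averaged 1.74 ± 0.86 (SD over 5 probes), 3.35-fold over the median probe, and 4 of its probes were at or above 1. Its probes read 3.08, 0.67, 1.68, 1.61 and 1.68 over -614 to -40 bp from the start, so no probe was below 0. Hist1h3f (H3c7) averaged 1.62 ± 0.56 over 6 probes. These included 3 that it shares with Hist1h2bh, and its own 3, annotated inside the gene, read 1.71, 0.64 and 1.51. Hist1h3g (H3c8) averaged 1.49 ± 1.80 over 7 probes. Its probes read 0.47, 2.37, 2.42, 2.58, 2.02 and 2.78 over -1016 to -3 bp from the start, and the 1 probe inside the gene, at 458 bp, read -2.22. Of its probes 3 were dim in input, and without them its mean was 0.72. Hist1h3a (H3c1) averaged 1.37 ± 1.17 over 6 probes, all of them shared with the H1 gene Hist1h1a. With 4 of the 6 dim in input, it was not measured when such probes were left out. Hist1h3i (H3c11) averaged 1.31 ± 1.15 over 19 probes, 12 of which stood at or above 1, and was the 1 member of 10 probes or more past the threshold. It stood below the threshold with loess (0.80), with normexp (0.96) and in the centred values of the authors' deposited table (0.98). With loess Hist1h3f did too (0.94). Hist1h3i was also the lowest member inside the threshold.

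The other 6 H3 genes lay lower. Hist1h3c (H3c3) stood at 0.57 ± 0.78 over 6 probes, all shared with Hist1h2bb. The name Hist1h3h stood at 0.26 ± 1.29 over 100 probes, but these lay in 11 separate stretches over 2027685 bp of chromosome 13, 96 of them annotated as inside the gene and mostly among other histone genes, so the value is not that of 1 promoter. Without that name the H3 median was 0.94 and the median of the members 0.22. The lowest H3 genes were Hist2h3c2 (H3c15) at -0.09 ± 0.79 (9 probes) and Hist1h3e (H3c6) at -0.05 ± 1.33 (39 probes). For Hist1h3e, the gene mean leaves unseen the promoter printed above, whose probes read 1.67 and 3.23.

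Among the 15 H2b genes the median was 0.30. Hist1h2bh (H2bc9) had the highest mean of all members, 1.96 ± 0.37 over 3 probes, 3.89-fold over the median probe. Its probes read 2.28, 2.04 and 1.56, all of them above 1, in the stretch between it and Hist1h3f. Hist1h2ba (H2bc1), which encodes the H2b form of the male germ line, came just outside the threshold at 0.96 ± 0.95 over 25 probes, of which 13 stood at or above 1 and none at or below -1. The lowest H2b genes were Hist1h2bp (H2bc22) at -0.33 ± 1.48 (19 probes) and Hist1h2bj (H2bc11) at -0.25 ± 1.90 (15 probes).

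The 9 H2a genes had a median of 0.37. Hist1h2af (H2ac10) was the highest at 0.65 ± 1.33 (10 probes), followed by Hist1h2ae (H2ac8) at 0.58 ± 1.18 (3 probes). The lowest were Hist1h2ac (H2ac6) at -0.35 ± 1.70 (8 probes) and the name Hist2h2ac (H2ac20) at -0.01 ± 1.30 (16 probes). By sequence, however, the 1 probe in the H2ac20 promoter carries the name Hist2h2ab-Hist2h2be and stood at 1.35. The 2 probes in the H2ac21 promoter carry the name Hist2h2ac. Hist1h2aa (H2ac1), the germ line partner of Hist1h2ba, stood at 0.49 ± 1.52 (16 probes). The range of 1 H2a gene's probes, from -2.19 to 3.62 in Hist1h2aa, was far wider than the range of the class means.

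The 6 linker histone genes of class H1 had a median of 0.20 (-0.10 with loess) and 0 at or above 1. Hist1h1a (H1f1) was highest at 0.39 ± 1.30 (23 probes) and Hist1h1c (H1f2) next at 0.29 ± 1.46 (38 probes). Hist1h1d (H1f3) was lowest at -0.08 ± 1.29 (31 probes), and Hist1h1b (H1f5) stood at 0.05 ± 1.62 (23 probes). Hist1h1t (H1f6), the H1 form of spermatocytes, stood at 0.12 ± 1.36 (24 probes).

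The 12 H4 genes had the only class median below that of all genes, -0.21 (0.01 without centring, against 0.10 for all genes). Of the 12, 4 lay above 0 (33.3%), against 39.2% of all genes. With the median of each gene's probes in place of the mean, the H4 median was 0.04, which is above that of all genes (-0.01). Hist1h4d (H4c4) at 0.40 ± 0.91 (21 probes) and Hist1h4h (H4c8) at 0.31 ± 1.67 (28 probes) were highest. Hist1h4a (H4c1) at -0.61 ± 1.93 (14 probes) and Hist1h4b (H4c2) at -0.43 ± 1.73 (23 probes) were the lowest of all members. In Hist1h4a, 4 probes stood at or above 1 and 7 at or below -1, so its probes did not share a direction. These class medians rest on 1 array per gene, and in 8 units genes of different names share probes.

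Of the 8 names with 1 or 2 probes, 7 stood at or above 1, against 12.8% of the 187 such names on the arrays. Hist1h2ai stood at 2.42, Hist1h2ad and Hist1h2bf at 2.39 on the same 2 probes, Hist1h2bg at 1.83, Hist1h2ak at 1.74, Hist2h2ab at 1.35 and Hist1h2an at 1.03. Hist1h2ag stood at -2.39. By the array's annotation all of these probes lie in the short stretch between a pair of H2a and H2b genes, and the partner gene carries the same 1 or 2 probes. By sequence, however, the probe named for Hist2h2ab lies in the promoter of Hist2h2ac (H2ac20), and the promoter of Hist2h2ab (H2ac21) stood at 0.33.

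The probes were next placed by their distance from the nearest transcription start matched to RefSeq. The histone starts were those of 49 histone cluster genes. These include names with fewer than 3 probes and leave out members without a matched promoter. In the 250 bases before the start, the histone probes averaged 0.99 ± 1.48 (SD over 55 probes of 42 genes), against 0.03 ± 1.31 (SD over 16380 probes) for all other genes. Of these histone probes 56.4% stood at or above 1, against 20.8% of the others. In the 250 bases after the start the histone probes averaged -0.04, against 0.03. From 1000 to 3000 bases on either side they averaged 0.10, against -0.10. In the 3 bins of 250 bases from 1000 to 250 bases before the start the histone probes averaged 0.45, 0.59 and 0.46, against 0.00, 0.04 and 0.11. The histone means were thus above those of the other genes in the 1000 bases before the start and not in the 250 after it. In the 250 bases before the start, the H3 genes averaged 1.44 (14 probes of 8 genes), the H1 genes 1.46 (7 probes), the H2a genes 1.19 (10 probes), the H2b genes 1.04 (14 probes) and the H4 genes -0.23 (10 probes).

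**Figure D2:**
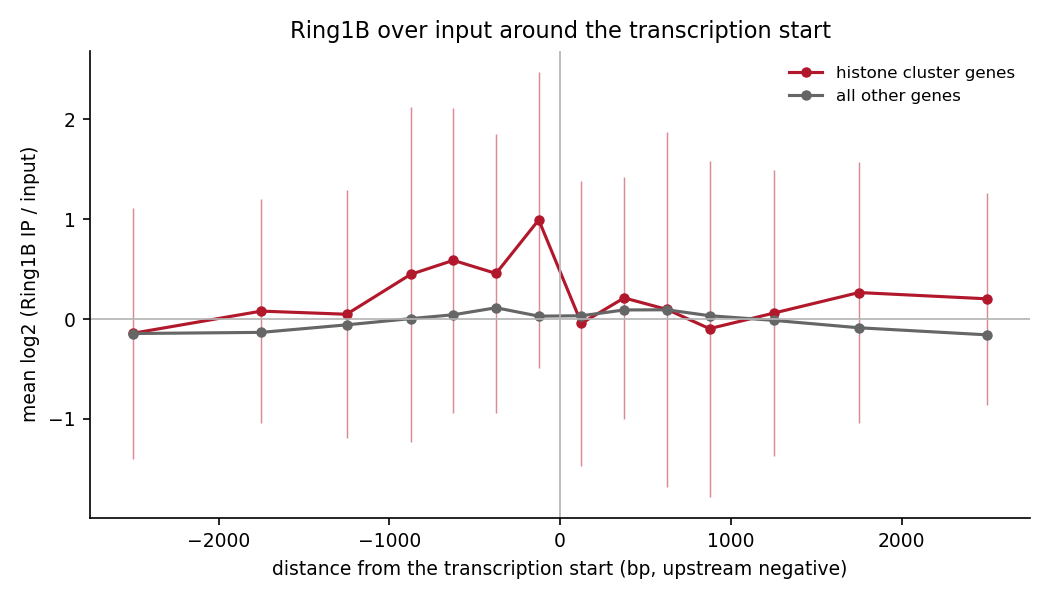
Mean log2 ratio of Ring1B over input (vertical axis) against distance from the transcription start in bp (horizontal axis, upstream negative). Probes nearest the matched starts of 49 histone cluster genes are red, with bars of 1 SD over probes, and those nearest other starts are grey. The histone mean is highest in the 250 bases before the start (0.99, against 0.03 for all other genes) and is -0.04 in the next 250.

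Values were also taken over probes that lie whole within the 300-base RefSeq promoter. This could be done for 49 histone promoters with 63 probes and for 13261 promoters in all. The starts are those used above and the probes overlap, so these values are not a separate observation. The histone promoters had a median of 1.19, against 0.02, and with loess 0.62, against 0.16. Of the 49, 28 stood at or above 1 (57.1%), against 18.3% of all promoters, and 6 stood at or below -1 (12.2%), against 15.9%. With every probe counted once, the medians were 1.32 for the 63 histone probes and 0.01 for 19498 promoter probes. Where 2 or more probes lay in the promoter, 15 of 22 stood at or above 1, against 15.7% of 6024. Most promoters rest on a single probe, whose value has no error of its own here.

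**Figure D3:**
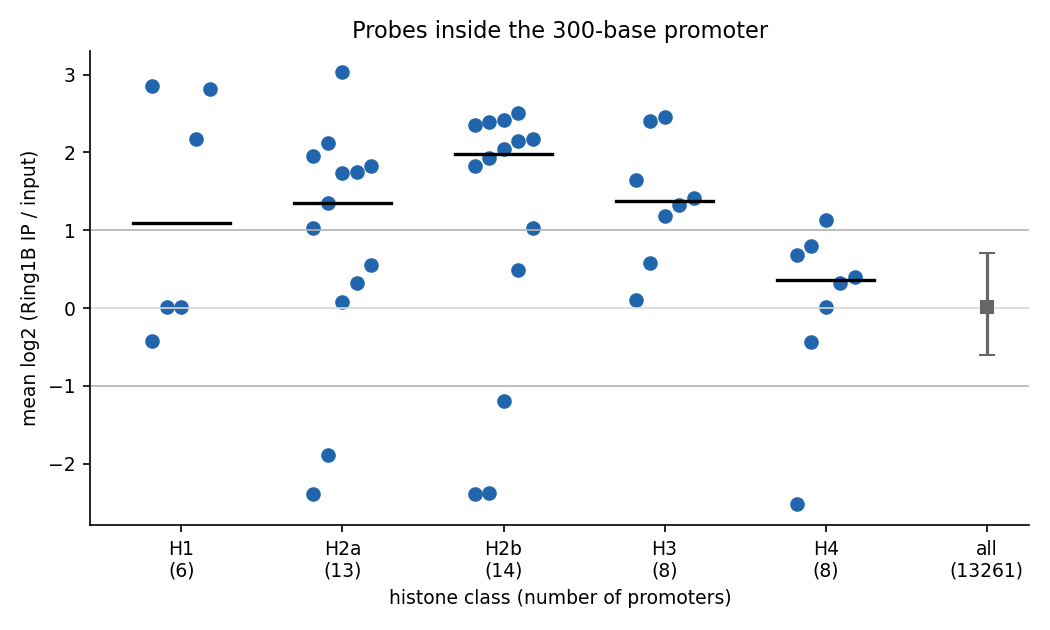
Mean log2 ratio of Ring1B over input (vertical axis) of the probes inside the 300-base promoter, for 49 histone promoters by class (points, 1 per promoter, with black class medians) and for all 13261 promoters (square, median with its quartiles). The class medians of H1 (1.09), H2a, H2b and H3 lie above 1 and that of H4 at 0.36, whereas with loess only that of H2b does (1.52).

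By class, the H2b promoters had the highest median, 1.98 over 14 (1.52 with loess), with 10 at or above 1. H2bc15 stood at 2.51, H2bc13 at 2.42 (2.12 and 2.72) and H2bc14 at 2.35. The H3 promoters had a median of 1.37 over 8 (0.97 with loess), with 6 at or above 1. All 8 were above 0, against 51.3% of all promoters. H3c6 at 2.45 and H3c8 at 2.40 were highest, and H3c3 at 0.10 and H3c4 at 0.58 lowest. The H2a promoters had a median of 1.35 over 13 (0.84 with loess), with 8 at or above 1 and 2 at or below -1. H2ac7 stood at 3.03, the highest of all 49, on a probe that it shares with H2bc7. The 6 H1 promoters had a median of 1.09 (0.63 with loess) and parted into 3 high and 3 low ones. Their median was 0.02 over the 5 left without probes dim in input, and was 0.02 over the 3 with at least 2 probes. H1f1 stood at 2.85, H1f4 at 2.81 and H1f5 at 2.17, whereas H1f2 and H1f6 stood at 0.02 and H1f3 at -0.42. The 8 H4 promoters had a median of 0.36 (0.14 with loess), and only H4c8 was at or above 1, at 1.13. The germ line genes Hist1h2aa and Hist1h2ba, present names H2ac1 and H2bc1, had promoter values of 1.75 and 1.93 and share a probe at 2.26, whereas that of the spermatocyte gene Hist1h1t (H1f6) was 0.02.

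Along the chromosomes the promoter values were grouped into stretches, taken here as probes of members less than 100000 bp apart. This division was made after the values were seen and the counts carry no test. On chromosome 13, between 21077124 and 21196904, all 10 measured promoters stood at or above 1, from 1.03 to 2.51 with a median of 1.93. These rest on 12 probes, 10 of them at or above 1, and 3 pairs of promoters share a probe, so that 7 separate places were read. In the next stretch, between 21396589 and 21414044, all 5 stood at or below -1, from -2.51 to -1.19 with a median of -2.39, and these were H2bc12, H2ac12, H4c9, H2ac11 and H2bc11. These rest on 5 probes at 3 places, since H2ac11 and H2bc11 are read by the same probe and H2ac12 and H2bc12 share one at -1.88. Of the 5 probes 4 stood at or below -1, and the other probe of H2bc12 stood at -0.51. Over all member probes, the mean was 0.21 in the stretch of 10 promoters and -0.04 in that of 5. The contrast was thus one of promoter probes and not of the whole stretches. The stretch between 22891615 and 23133266 held 26 promoters, from -0.42 to 3.03, of which 13 reached 1 and none was at or below -1. The 2 promoters of the germ line pair Hist1h2aa and Hist1h2ba formed a stretch of their own, at 1.75 and 1.93. On chromosome 3, 3 of 4 stood at or above 1, on chromosome 6 the 1 promoter stood at -0.44 and on chromosome 11 at -2.37. Without the stretch of 5 low promoters, H2bu2 on chromosome 11 was the only one of the 44 others at or below -1.

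**Figure D4:**
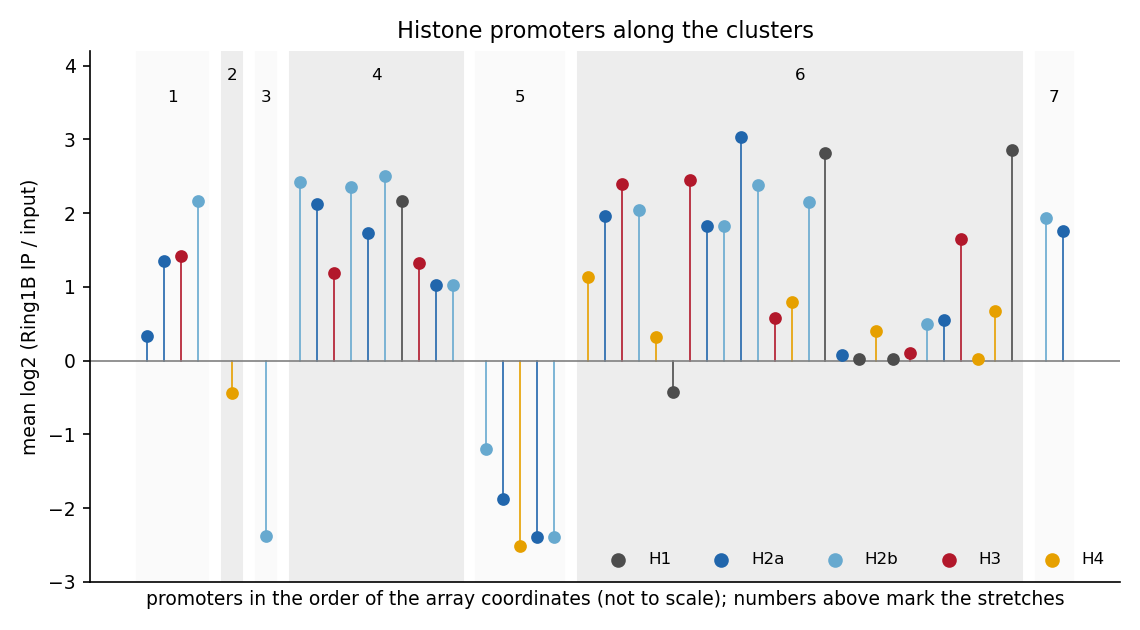
Mean log2 ratio of Ring1B over input (vertical axis) of each of the 49 histone promoters, in the order of the array coordinates and coloured by class; shaded blocks 1 to 7 are the stretches on chromosomes 3, 6, 11 and 13. All 10 promoters of block 4 (12 probes) lie at or above 1 and all 5 of block 5 (5 probes) at or below -1.

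Both channels were dim at the histone promoters. The 63 probes had a median Ring1B signal of 437 and a median input signal of 133 fluorescence units, against 941 for Ring1B and 865 for input over all promoter probes. The 35 probes at or above 1 had medians of 592 for Ring1B and 127 for input, so the Ring1B signal itself was below that of the median promoter probe and the input signal was lower still. The 5 probes at or below -1 had medians of 222 for Ring1B and 1046 for input. The histone promoter probes had a median GC content of 36.7%, against 48.0%, and 22.2% of them did not stand well above background in the input channel, against 10.2%. The part of low input signal and of GC content in the ratios was not tested. With ratios corrected for probe GC, 28 of 49 histone promoters stood at or above 1, against 20.8% of all promoters, and with loess within the array, which removes the trend of the ratio with brightness, 22 did (44.9%), against 20.1%. Among the 43 promoters with input well above background, 27 stood at or above 1 (62.8%), against 17.9%.

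**Figure D5:**
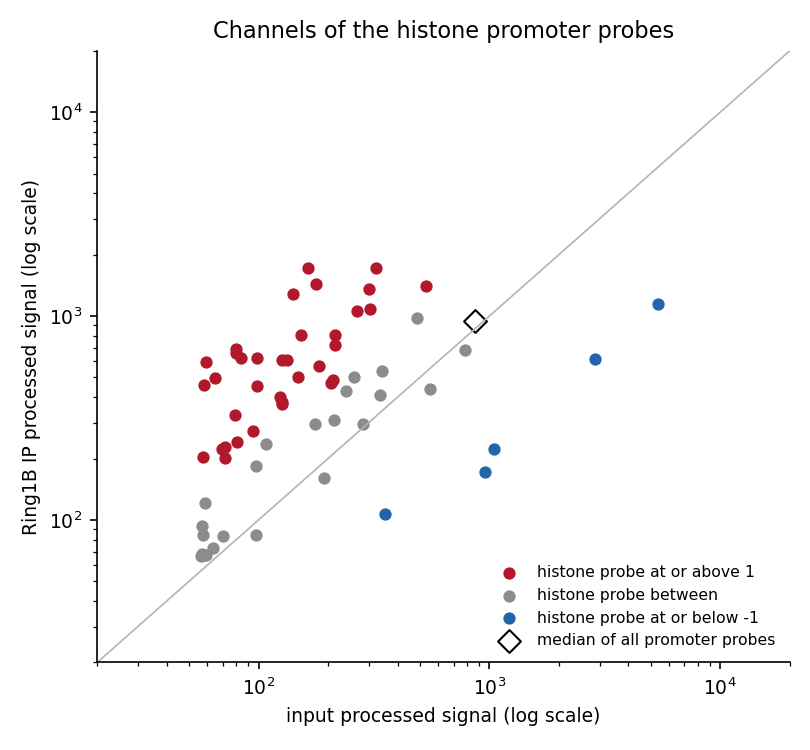
Ring1B signal (vertical axis) against input signal (horizontal axis), both in fluorescence units on log scales, for the 63 histone promoter probes, coloured by whether the centred log2 ratio is at or above 1 (red, 35 probes), between (grey) or at or below -1 (blue, 5 probes). The open diamond is the median of all promoter probes and the line marks equal signals; red points lie left of the diamond and blue points below the line.

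The scanner software gives each spot a p-value from its own error model, used here only as a description. Of the 63 histone promoter probes, 26 had a p under 0.01 with a higher Ring1B signal (41.3%), against 24.9% of all promoter probes, and 4 had one with a lower Ring1B signal (6.35%), against 19.3%. Over all 1011 member probes these shares were 16.2% and 14.3%, against 17.7% and 19.5% of the probes of all genes.

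Runs of neighbouring probes were sought next. A run was at least 3 probes whose running mean over 500 bp on either side was 1 or more. Of the 53 members, 20 held part of such a run (37.7%), against 29.4% of all genes, and 15 held part of a run at -1 or less (28.3%), against 47.0%. With loess within the array 11 members held a run at 1 or more (20.8%), against 26.02% of all genes, and 12 did when a run needed 5 probes (22.6%), against 14.9%. The members touched 18 regions above and 16 below. The longest above covered 2240 bp over Hist1h2af and Hist1h3g with a mean of 1.83, and the next 2127 bp over the germ line pair Hist1h2aa and Hist1h2ba with a mean of 1.87. The highest, 2.07 over 337 bp, lay at the start of Hist1h1b. The longest below covered 1282 bp between Hist1h4a and Hist1h4b with a mean of -2.06, and the next 1269 bp at Hist2h4 with a mean of -1.82. Since the share of genes with a run was high among all genes, a single run at a member is not set apart.

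Histone genes other than the members were taken for comparison. H2afj among them shares 12 probes with Hist4h4 and is counted again below among the genes inside the clusters. Of 17 genes for histones made outside DNA replication or in germ cells, 14 were measured, with a median of 0.08; none reached 1 and H1foo alone lay below -1. H3f3a, which encodes the replacement histone H3.3, stood at 0.52 ± 1.03 (26 probes), and H2afx, which encodes the variant marked at DNA breaks, at 0.36 ± 1.12 (9 probes). H1foo, the oocyte linker histone, stood at -1.05 ± 1.57 (30 probes) and H2afy3 at -0.82 ± 1.88 (33 probes).

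Of 23 genes listed for factors that act in histone gene transcription or transcript processing, 17 were measured, with a median of -0.18 and 0 at or above 1. Ars2, part of the nuclear cap-binding machinery, stood at 0.39 over 26 probes and Thex1, a nuclease that trims histone transcripts, at 0.28 ± 0.86 (24 probes). Slbp, which binds the stem-loop of histone transcripts, was lowest at -1.30 ± 1.25 (15 probes), and Cpsf3, the nuclease that cuts their ends, stood at -0.58 ± 1.74 (42 probes).

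The 9 other genes lying inside the histone clusters had a median of 0.06 and 0 past the threshold either way. H2afj and Prss16 were highest, both at 0.29 over 22 and 34 probes, and Trim38 at -0.64 ± 2.02 (25 probes) and Slc17a2 at -0.27 ± 1.36 (33 probes) were lowest. H2afj shares 12 probes with the H4 gene Hist4h4, so these values are not independent.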

How the data were processed

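Ring1B immunoprecipitated DNA (Cy5) and input DNA (Cy3) of mouse ES cells were read on 2 Agilent promoter arrays. Per the file headers, Agilent Feature Extraction 9.1.3.1 quantified the scans. Its processed signals, the deposited intensity used here, have the background subtracted and a dye factor applied. The deposited log10 ratio (red over green) and the deposited p-value per spot come from the same software, per the file headers. The log10 ratio was used only as a check on the direction, and the p-value only as a description. The deposited series table holds log2 ratios of mean signals (largest difference 5.0e-05), which were centred here and used as an alternative.

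The value was the log2 of red over green processed signal minus the array's median probe (0.23 and 0.16; SD over probes 1.33 and 1.44). Control spots and outlier-flagged probes were left out. Names joined by a hyphen at divergent promoters counted for both genes, and at least 3 probes were needed. Starts of members came on array 1 from the distances deposited with the array. On array 2 they came from probes matched to RefSeq promoter sequence or from the boundary between promoter and inside probes, and 49 members had a start. The profile around the start used only starts matched to RefSeq, on both arrays. For 22 promoters with several matched probes all gave the same start. Clusters joined members less than 1000000 bp apart. A scanner p of 0.01 was used. The averaging and the search for runs were also tried on simulated data on the real probe positions, with a shift added to every probe of chosen genes. A signal confined to the bases before the start, and dim or floored probes, were not simulated.

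Every member could be named. Full values are given for the 2 highest and 2 lowest genes of each class, all members at or past 1 in size, the germ line forms and the members nearest the threshold, and for the 2 highest and 2 lowest of the other lists. The members and lists were chosen with earlier results of these data known. With 1 array per promoter there was no test, and precision is limited by having 1 array for each promoter. Python 3.11.15, numpy 2.4.6, pandas 2.3.3, matplotlib 3.10.9, R 4.3.3 and limma 3.58.1 were used.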

Additional observations from a re-analysis of the deposited data

How the results depend on the processing

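Values of genes were recomputed with loess, normexp (offset 50), uncentred ratios, the authors' series table, without probes whose 2 channels were floored, without probes dim in input, with GC-corrected ratios, with the median of the probes, within 1000 bp of the start, with probes of the gene alone and with at least 10 or 20 probes, and promoters and runs under the first 7 of these. Leaving out probes alike in sequence left out none. The count of members at or above 1 was between 4 and 7 under the first 7 settings, where the share of all genes was 2.28% to 2.99%. It was 1 of 38 with at least 10 probes, against 1.93%, and 0 of 28 with at least 20, against 2.13%. Within 1000 bp of the start it was 12 of 47, where no share of all genes was computed. It was 13 at a threshold of 0.5 and 3 at 1.5, where the share of all genes is not given here. The count at or below -1 was 2 without probes dim in input (3.92%), against 7.51% of all genes. It was 1 within 1000 bp of the start, 1 with probes of the gene alone and 1 at a threshold of 0.5, with no share of all genes given here. The H1 median was -0.10 with loess and 0.53 within 1000 bp of the start. The members' median was -0.05 with loess, against -0.14 for all genes; leaving out the centring put the median of all genes at 0.10 and that of the members at 0.41. Members with a run numbered 12 for runs of at least 5 probes and 11 with loess, so with loess the members' share (20.8%) lay below that of all genes (4399 of 16908). With at least 2 probes, added after seeing the data as were all settings for promoters, 15 of 22 promoters reached 1 and 2 lay at -1 or less. Of 567 values of single members under these alternatives, 563 moved by less than the SD over their probes and 4 by more. Of those past the threshold, 0 changed sign. This is a lenient measure, since for most members that SD is larger than the mean itself. The values also include the setting that left out no probe and the uncentred ratios, which differ by a constant on each array. Of the 6 genes at or above 1, 4 kept that with loess, and 4 of the 5 still measured kept it without probes dim in input. No paired analysis was possible because each promoter was measured on 1 array. The genome build of the arrays, the single channel orientation and the lack of a mock immunoprecipitation limit what can be read from any 1 promoter.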
